A study of Saccharomyces cerevisiae with 8 samples.

Results

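Nuclear DNA replication in budding yeast is carried out by a set of protein complexes, and the 52 genes that encode its core machinery are described here. They were chosen by name and known function, not by a measured threshold, out of 7105 genes in the deposited table. Earlier results of these data were known when they were chosen. The list holds the 6 subunits of the origin recognition complex, the licensing factor CDC6, the 6 subunits of the MCM2-7 helicase, CDC45 and the 4 GINS subunits, and 4 origin firing factors. It also holds polymerases alpha-primase, delta and epsilon with 4, 3 and 4 subunits, the sliding clamp POL30, its 5-subunit loader RFC, the 3 subunits of RPA, 2 enzymes of Okazaki fragment processing, 4 fork proteins, 2 topoisomerases, and 2 enzymes of thymidylate and dUTP metabolism. All 52 genes were measured and passed the filter on low counts.

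RNA was sequenced from 8 cultures of BY4743, a diploid of the S288C background grown in synthetic complete medium without uracil. The 4 groups of 2 cultures were ρ0 cells with a 2µ plasmid carrying PDE2, ρ0 cells with a 2µ plasmid carrying TIP41, ρ0 cells with the empty 2µ-URA3 vector, and ρ+ cells with that same empty vector. PDE2 encodes a cAMP phosphodiesterase and TIP41 a Tap42-binding protein of the TORC1 pathway, and both were carried on high-copy plasmids. The ρ0 cultures had 25 µg/ml of ethidium bromide (EtBr) for 24 h and lack mitochondrial DNA, whereas the ρ+ cultures had 0 µg/ml. There was no ρ+ group with EtBr and no overexpression in ρ+ cells, so loss of mtDNA, the dye itself and growth rate cannot be told apart here. The libraries are numbered 0 and 1 in each group, and different experimenters made the replicates.

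Libraries held 1389579 to 4884282 fragments in genes, with the lowest and the highest total in the ρ+ group. The lowest library of a replication gene ranged from 20 fragments for PSF2 to 215 for RFC1, so the precision differs between genes. Genes of the mitochondrial genome had 0 fragments in all 6 ρ0 libraries, and 9 and 6 in ρ+ replicates 0 and 1. LEU2, deleted in this strain, had 0 fragments in every library, while HIS3, of which the strain's deletion takes only a part, had 57.2 to 86.2 CPM, counts scaled to a common library size by TMM. Of 12 haploid-specific and mating genes, MFA1 and MFA2 had at most 1 fragment per library, while others were measured, such as MF(ALPHA)2 at 8 to 24 fragments and STE4 at 31 to 76. The summed level of the 12 was 80.8 to 103 CPM in the ρ0 libraries, against 64.8 and 72.2 CPM in the ρ+ libraries. The part of this difference in the results was not tested.

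Replication starts when the origin recognition complex and CDC6 load MCM2-7 onto DNA in G1. In S phase CDC45 and GINS join the helicase, the polymerases copy both strands, and the clamp, flap endonuclease and ligase finish the lagging strand. In budding yeast many of these genes are transcribed at the passage from G1 to S by MBF, a factor that binds the MluI cell cycle box (MCB), whereas the related factor SBF binds the Swi4 cell cycle box (SCB). MCM genes and CDC6 also belong to a set transcribed earlier, around the end of mitosis. In RNA from a whole culture, a smaller share of cells in the stage that transcribes a gene and less of its RNA per cell cannot be told apart.

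Loss of mtDNA went with lower levels of a subset of these genes. It took in subunits of each polymerase, the clamp and its loader, RPA and both Okazaki fragment enzymes, and of the licensing genes CDC6 alone. Polymerase delta, polymerase epsilon and the clamp loader entered by 1 subunit each: POL32, DPB2 and RFC3 (edgeR adjusted p 0.0387, 0.0213 and 0.0269). Neither these nor CDC6 were among the genes, given below, that passed under every alternative tried. In ρ0 vector cells against ρ+ vector cells, 17 of the 52 genes fell and 0 rose (edgeR quasi-likelihood test, adjusted p under 0.05 over 5832 genes). Of all genes tested, 6.38% fell and 7.49% rose in this comparison. These shares are set beside the list as a description, since it was made with earlier results of these data known. The log2 fold change was negative for 42 of the 52 genes, with a median of -0.34, while the median over all genes tested was 0.01. At an unadjusted p under 0.05, 24 were lower and 3 higher, where 29% of all genes lay under it, and both DESeq2 and limma called 0 higher. The 2 groups did not overlap for 43 of the genes, 36 of them lower in ρ0 cells and 7 higher, where 27.9% and 28.7% of all genes tested did so. The count depended on single libraries: it was smaller without ρ+ replicate 0, the deepest library, and without ρ0 vector replicate 1. The share of all genes called in these fits is not given. POL30, RAD27, CDC9, POL1 and RFA2 passed under every alternative tried. With the replicate number as a block, 22 fell and 1 rose, against 9.67% and 10.2% of all genes.

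**Figure D1:**
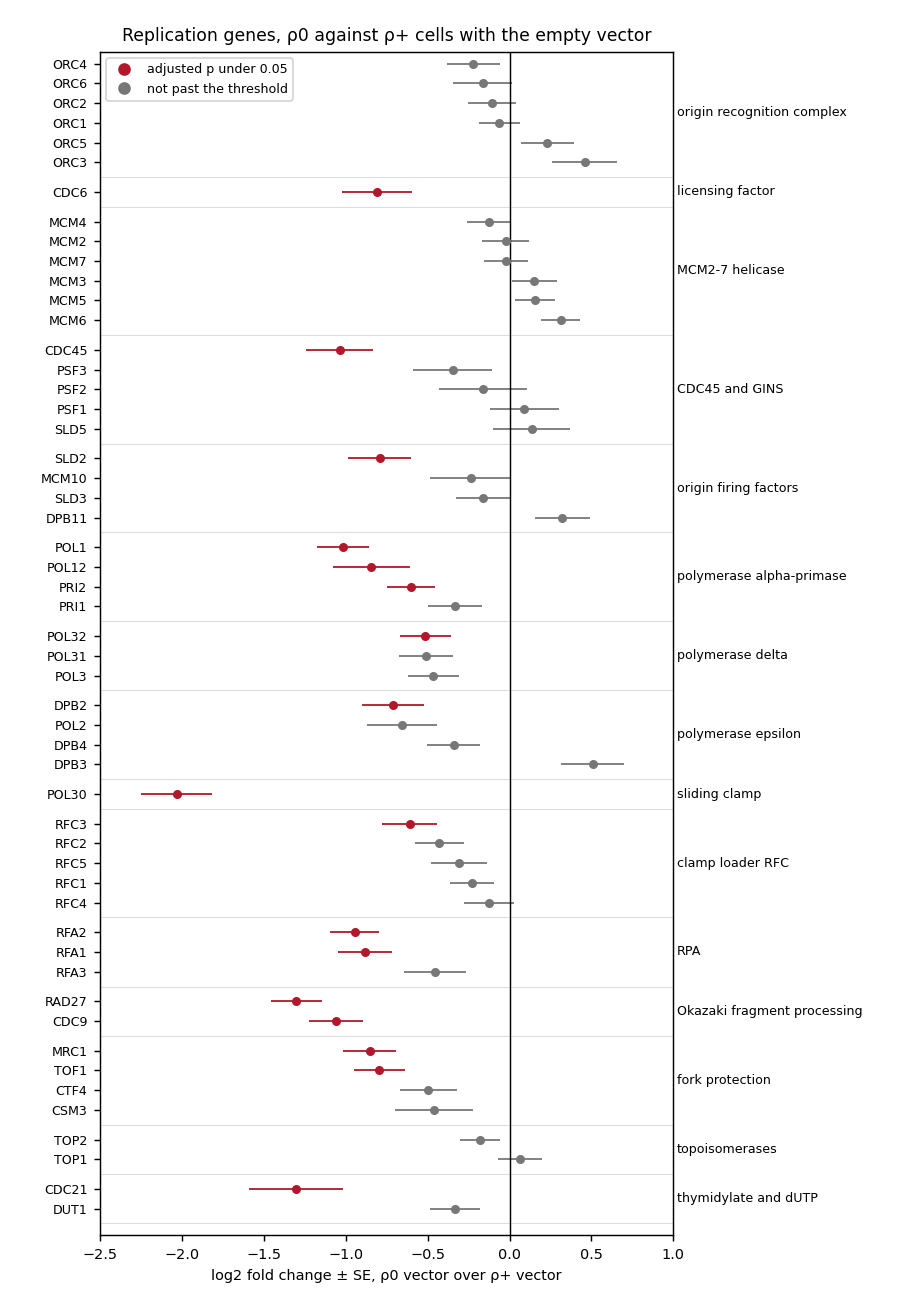
The log2 fold change of each of the 52 replication genes in ρ0 vector over ρ+ vector cells, on the horizontal axis, with bars of 1 SE from the edgeR fit (n = 2 libraries a group), grouped by complex down the page. Red points passed an adjusted p of 0.05: all 17 lie left of 0, from -2.03 for POL30 to -0.51 for POL32, and none belongs to the origin recognition complex or MCM2-7.

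The sequence before these genes was searched for both boxes in a window of 250 bases before and 50 bases after the first base of the coding region, in the R64 genome. The MCB searched was ACGCGT, which reads the same on both strands, and the SCB was CACGAAA on either strand, and neither lies inside the other. Of 6001 promoters of this length, 3.07% held an MCB and 0.35% held 2, while 4.2% held an SCB. Among the 52 replication genes, 25 held an MCB and 3 an SCB (RFC1, SLD5 and MCM7). A match describes letters and shows no binding.

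The replication genes that fell were mostly those with an MCB. An MCB was found for 16 of the 17 genes that fell, the exception being RFC3, and for 9 of the 35 that did not pass the test. With 2 MCBs, 9 of 9 replication genes fell, with a median log2 fold change of -0.95 and a range of -1.30 to -0.80. With 1 MCB, 7 of 16 fell (median -0.51), and with none, 1 of 27 fell (median -0.12). Among genes outside the list, 9 of 11 with 2 MCBs fell (81.8%), 27 of 141 with 1 MCB fell (19.1%), and 5.94% of those with none fell. In the 8 further lists of replication and cell cycle genes described below, the share without an MCB that fell was larger, at 17 of 83 (20.5%). There, 5 of 14 with 1 MCB (35.7%) and 3 of 3 with 2 MCBs fell. The 25 MCBs of the replication genes that fell began 222 to 108 bases before the coding region, with a median of 150. Windows of neighbouring genes can overlap, so the same box can be counted for a gene of the list and for a gene outside it. These counts are a description, without a test.

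**Figure D2:**
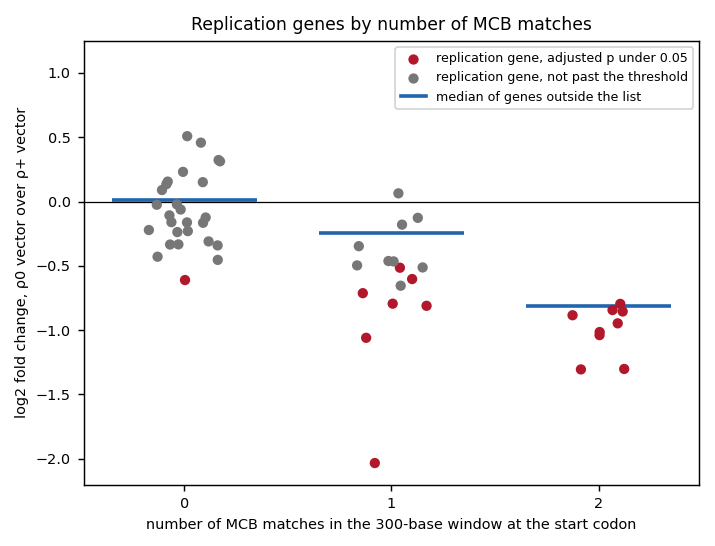
The log2 fold change in ρ0 vector over ρ+ vector cells, on the vertical axis, of the 52 replication genes by the number of MCB matches in their 300-base window. Points are genes, red where the adjusted p was under 0.05, and blue lines give the median of genes outside the list (0.01, -0.25 and -0.81 for 0, 1 and 2 matches). All 9 genes with 2 matches lie between -1.30 and -0.80, and the lowest point, POL30, has 1 match.

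The boxes of the 7 replication genes with an MCB and the smallest adjusted p are shown as examples. A call and an MCB were both required, so they add nothing to the counts above. Each sequence is the coding strand 5′ to 3′ of R64, from 20 bases before the first MCB to 20 after the last. The MCB is in capitals.
POL30: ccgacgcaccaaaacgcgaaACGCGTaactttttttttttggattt
RAD27: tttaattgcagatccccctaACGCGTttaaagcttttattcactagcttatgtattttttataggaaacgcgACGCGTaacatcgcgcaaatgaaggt
CDC9: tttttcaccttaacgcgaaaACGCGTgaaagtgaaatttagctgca
POL1: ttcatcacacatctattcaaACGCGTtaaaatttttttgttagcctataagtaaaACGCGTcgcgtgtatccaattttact
RFA2: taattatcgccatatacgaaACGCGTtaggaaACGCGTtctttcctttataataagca
RFA1: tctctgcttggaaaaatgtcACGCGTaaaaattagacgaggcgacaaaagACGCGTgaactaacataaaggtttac
MRC1: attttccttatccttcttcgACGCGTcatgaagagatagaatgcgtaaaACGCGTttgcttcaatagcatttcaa

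POL30 is read from chrII:425936-425981 on the minus strand, RAD27 from chrXI:225978-226075 (minus), CDC9 from chrIV:167354-167399 (minus), POL1 from chrXIV:429859-429939 (plus), RFA2 from chrXIV:48147-48204 (plus), RFA1 from chrI:158729-158804 (minus) and MRC1 from chrIII:22196-22270 (minus). All 7 stretches lie upstream of the coding region, between 228 and 83 bases before it. The first bases of paired boxes lie 12 bases apart in RFA2, 29 in MRC1, 30 in RFA1, 35 in POL1 and 52 in RAD27.

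The origin recognition complex, which marks origins throughout the cell cycle, had no subunit past the threshold without the replicate block. Of its 6 subunits 0 were called (edgeR, DESeq2 and limma), and 1 had an unadjusted p under 0.05 in edgeR. Their log2 fold changes with loss of mtDNA ran from -0.22 for ORC4 to 0.46 for ORC3, with a median of -0.08, and none holds an MCB. ORC1, which carries the ATPase of the complex, had 88.6 and 86.3 CPM in ρ0 vector cells, against 89.4 and 94.0 CPM in ρ+ vector cells. ORC3 passed only with the replicate block (log2 fold change 0.50, edgeR adjusted p 0.0326; range 0.0326 to 0.552 over the alternatives), and had 0.146 without the block. CDC6, the ATPase that brings MCM2-7 to the origin, fell by 0.81 on the log2 scale (SE 0.21, edgeR adjusted p 0.0198). Its level was 24.9 and 22.2 CPM in ρ0 vector cells, against 42.2 and 40.0 CPM in ρ+ cells, and the groups did not overlap.

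The MCM2-7 helicase, the motor loaded at origins, showed no common direction, with 3 log2 fold changes below 0 and 3 above it. Of its 6 subunits 0 were called, and 1 had an unadjusted p under 0.05 (edgeR; 0 called by DESeq2 and limma), with log2 fold changes of -0.12 for MCM4 to 0.31 for MCM6 and a median of 0.06. MCM7 had 146 and 165 CPM in ρ0 vector cells, against 160 and 156 CPM in ρ+ cells, so the groups overlapped. None of the 6 holds an MCB. Each of the 6 had a negative log2 fold change with PDE2 in ρ0 cells, from -0.41 for MCM3 to -0.12, and with TIP41, from -0.31 to -0.15; both comparisons share the ρ0 vector libraries. None passed the adjusted threshold in either comparison (edgeR, DESeq2 and limma), and 3 with PDE2 and 2 with TIP41 had an unadjusted p under 0.05 in edgeR. MCM3 had 121 and 142 CPM in ρ0 PDE2 cells, against 193 and 157 CPM in ρ0 vector cells (edgeR adjusted p 0.119).

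Among the genes that turn a loaded helicase into an active one, CDC45 and SLD2 fell. CDC45, the helicase cofactor, had 19.4 and 17.8 CPM in ρ0 vector cells, against 38.1 and 38.6 CPM in ρ+ cells, a log2 fold change of -1.04 (SE 0.21, edgeR adjusted p 0.00347). The 4 GINS subunits PSF1, PSF2, PSF3 and SLD5, which form the same helicase complex with CDC45, had log2 fold changes of -0.35 to 0.13, and none passed. SLD2, a target of S phase kinase whose phosphorylation allows firing, had 22.7 and 20.6 CPM in ρ0 vector cells, against 38.8 and 35.8 CPM in ρ+ cells (log2 fold change -0.79, SE 0.19, edgeR adjusted p 0.0135). SLD3, DPB11 and MCM10, the other firing factors, had log2 fold changes of -0.16, 0.32 and -0.24 and did not pass. CDC45 holds 2 MCBs and SLD2 holds 1, while SLD3, DPB11 and MCM10 hold none.

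Polymerase alpha-primase, which lays down the RNA-DNA primers, had 3 of 4 subunits lower. POL1, the catalytic subunit of the polymerase, had 49.3 and 38.7 CPM in ρ0 vector cells, against 90.4 and 87.7 CPM in ρ+ cells (log2 fold change -1.01, SE 0.16, edgeR adjusted p 6.14e-04). POL12, its B subunit, had 34.6 and 24.2 CPM in ρ0 vector cells, against 59.5 and 43.5 CPM in ρ+ cells (log2 fold change -0.84, SE 0.23, edgeR adjusted p 0.0281). PRI2, the large primase subunit, had 43.9 and 43.6 CPM in ρ0 vector cells, against 66.9 and 65.9 CPM in ρ+ cells (log2 fold change -0.60, SE 0.15, edgeR adjusted p 0.0135). In none of these did the groups overlap. PRI1, the catalytic primase subunit and the member of the complex without an MCB, had a log2 fold change of -0.33 (edgeR adjusted p 0.197).

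The lagging strand polymerase delta and the leading strand polymerase epsilon each had 1 subunit past the threshold. POL32, the small subunit of polymerase delta, had 42.1 and 40.8 CPM in ρ0 vector cells, against 60.9 and 56.8 CPM in ρ+ cells (log2 fold change -0.51, SE 0.15, edgeR adjusted p 0.0387). DPB2, an essential subunit of polymerase epsilon, had 30.6 and 29.1 CPM in ρ0 vector cells, against 50.2 and 47.0 CPM in ρ+ cells (log2 fold change -0.71, SE 0.19, edgeR adjusted p 0.0213). Their catalytic subunits lay close to the threshold on its far side. POL3 of polymerase delta had a log2 fold change of -0.47 and an edgeR adjusted p of 0.0573, and its partner POL31 had -0.51 and 0.0508. POL2 of polymerase epsilon had a log2 fold change of -0.65 and an edgeR adjusted p of 0.0697. With the replicate block these passed, at edgeR adjusted p of 0.0244 for POL3, 0.0179 for POL31 and 5.16e-04 for POL2. Over the alternatives the adjusted p reached 0.245 for POL3, 0.288 for POL31 and 0.298 for POL2, and these block values were the lowest. DPB3, a small subunit of polymerase epsilon, had a log2 fold change of 0.51 (edgeR adjusted p 0.0937), and 0.26 once fragments of the overlapping YBR277C were added to it. DPB4, shared with a chromatin remodelling complex, had -0.34.

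POL30, which encodes PCNA, the ring that holds polymerases on DNA, had the largest change of the 52 genes. Its level was 27.7 and 22.2 CPM in ρ0 vector cells, against 120.0 and 79.9 CPM in ρ+ cells, so both ρ0 vector values lay below both ρ+ values. The mean in ρ0 vector cells was 24.4% of that in ρ+ cells by the fitted fold, a log2 fold change of -2.03 (SE 0.21, edgeR adjusted p 3.26e-05). POL30 overlaps YBR089W on the other strand, and no strand setting is named for how fragments were divided between them. YBR089W had 3.60 and 4.44 CPM in ρ0 vector cells, against 21.3 and 26.6 CPM in ρ+ cells, and the fragments of both genes together gave a log2 fold change of -2.11. The clamp loader RFC, which opens the ring, had 1 of 5 subunits lower. RFC3 fell by 0.61 on the log2 scale (SE 0.17, edgeR adjusted p 0.0269), with 78.2 and 60.5 CPM in ρ0 vector cells, against 119 and 89.8 CPM in ρ+ cells. RFC1, RFC2, RFC4 and RFC5 had log2 fold changes of -0.23, -0.43, -0.13 and -0.31, and of these RFC2 passed with the replicate block only (edgeR adjusted p 0.0389, against 0.0681, and up to 0.546 over the alternatives).

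The enzymes that finish Okazaki fragments both fell. RAD27, the flap endonuclease, had 41.1 and 39.5 CPM in ρ0 vector cells, against 106 and 90.5 CPM in ρ+ cells (log2 fold change -1.30, SE 0.16, edgeR adjusted p 6.34e-05). CDC9, the DNA ligase that seals the nicks, had 34.6 and 34.7 CPM in ρ0 vector cells, against 74.2 and 69.4 CPM in ρ+ cells (log2 fold change -1.06, SE 0.17, edgeR adjusted p 6.10e-04). For both genes the 6 ρ0 libraries all lay below the ρ+ libraries.

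RPA, the complex that coats single-stranded DNA, had 2 of 3 subunits lower. RFA1, its largest subunit, had 52.6 and 45.2 CPM in ρ0 vector cells, against 101 and 76.4 CPM in ρ+ cells (log2 fold change -0.88, SE 0.17, edgeR adjusted p 0.0024). RFA2 had 56.9 and 45.2 CPM in ρ0 vector cells, against 103 and 93.3 CPM in ρ+ cells (log2 fold change -0.95, SE 0.15, edgeR adjusted p 7.23e-04). RFA3, the smallest subunit, did not pass (log2 fold change -0.45, SE 0.19, edgeR adjusted p 0.124) and holds no MCB. On the scale of FPKM, which divides fragments by gene length and library size and so allows genes to be compared, RFA3 had the highest mean level of the 52 genes. It measured 183 and 153 FPKM in ρ0 vector cells, against 237 and 217 FPKM in ρ+ cells.

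The proteins that stabilise and monitor the fork were lower in part. MRC1, the checkpoint mediator that travels with the fork, had 32.8 and 34.3 CPM in ρ0 vector cells, against 63.8 and 56.1 CPM in ρ+ cells (log2 fold change -0.85, SE 0.16, edgeR adjusted p 0.00267). TOF1, its partner in fork pausing, had 33.5 and 33.9 CPM in ρ0 vector cells, against 58.2 and 58.9 CPM in ρ+ cells (log2 fold change -0.80, SE 0.16, edgeR adjusted p 0.00339). TOF1 had the lowest mean FPKM of the 52 genes, at 10.1 and 8.84 FPKM in ρ0 vector cells, against 17.6 and 15.5 FPKM in ρ+ cells. CSM3, which binds TOF1, and CTF4, which ties the helicase to polymerase alpha, had log2 fold changes of -0.46 and -0.50. CTF4 passed with the replicate block only (edgeR adjusted p 0.0397, against 0.0689, and up to 0.532 over the alternatives). The topoisomerases TOP1 and TOP2, which relieve twist ahead of the fork, had log2 fold changes of 0.06 and -0.18, and 0 of 2 had an unadjusted p under 0.05 by edgeR.

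CDC21, thymidylate synthase, supplies the dTMP that DNA needs. It had 24.9 and 12.9 CPM in ρ0 vector cells, against 54.8 and 35.8 CPM in ρ+ cells. Its log2 fold change was -1.30 (SE 0.29, edgeR adjusted p 0.011), and both groups were wide, with the SE the largest among the 17 genes. DUT1, the dUTPase, had a log2 fold change of -0.33 (edgeR adjusted p 0.168).

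**Figure D3:**
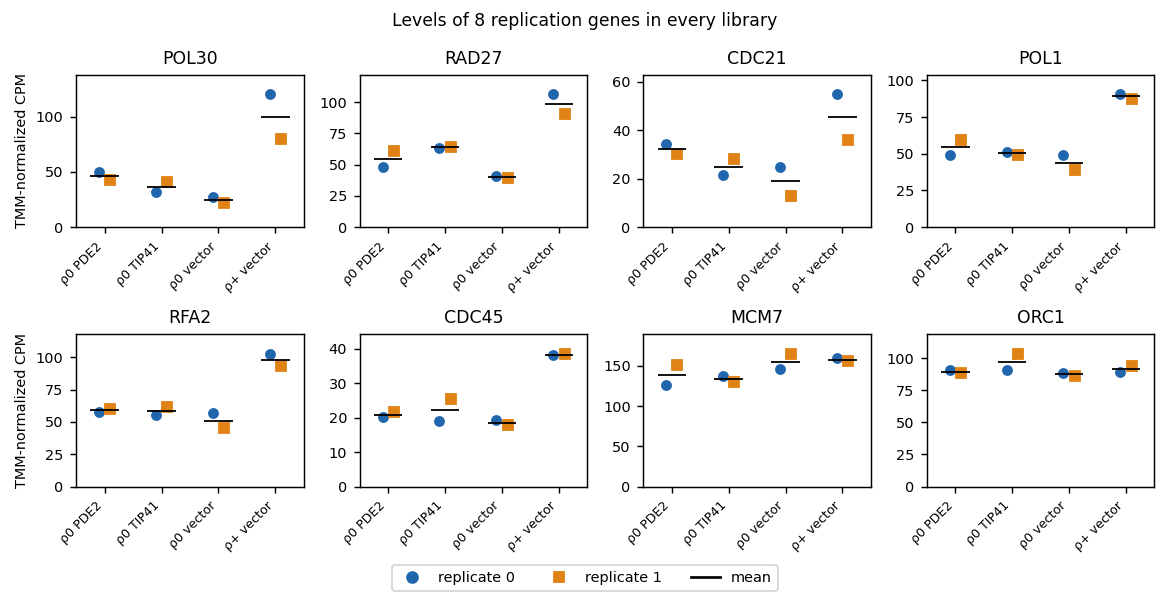
TMM-normalized CPM (vertical axes from 0) of 8 replication genes in all 8 libraries, with circles for replicate 0, squares for replicate 1 and a line for the group mean. POL30, RAD27, CDC21, POL1, RFA2 and CDC45 were lower in the ρ0 vector than in the ρ+ vector libraries without overlap, while MCM7 (146 and 165 against 160 and 156 CPM) overlapped and ORC1 lay at 88.6 and 86.3 against 89.4 and 94.0 CPM.

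Overexpression of PDE2 in ρ0 cells changed 0 of the 52 genes at the adjusted threshold in edgeR, and 0 in DESeq2 and limma, while 2.3% of all genes tested passed in edgeR. At an unadjusted p under 0.05, 4 were higher and 3 lower, with 19.7% of all genes under it. The median log2 fold change was -0.02, as over all genes tested. POL30 came nearest, with 49.7 and 42.3 CPM in ρ0 PDE2 cells, against 27.7 and 22.2 CPM in ρ0 vector cells. The groups did not overlap, where 1387 of the 5832 genes tested were higher without overlap. The log2 fold change of POL30 was 0.86 (SE 0.23, edgeR adjusted p 0.0665). CDC21 had 34.3 and 30.1 CPM in ρ0 PDE2 cells, against 24.9 and 12.9 CPM in ρ0 vector cells, a log2 fold change of 0.74 (SE 0.30, edgeR adjusted p 0.208). With the replicate block both passed, at edgeR adjusted p of 0.00826 for POL30 and 0.048 for CDC21, where 6.04% of all genes were called higher. Both also passed without ρ0 vector replicate 0, with log2 fold changes of 1.04 for POL30 and 1.30 for CDC21. With the fragments of POL30 and YBR089W summed, POL30 passed at 0.94 (edgeR adjusted p 0.0178). Over the alternatives the adjusted p ran from 0.00826 to 0.301 for POL30 and from 0.0226 to 0.618 for CDC21.

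Overexpression of TIP41 in ρ0 cells changed 0 of the 52 genes in edgeR, DESeq2 and limma, where 0.412% of all genes tested passed in edgeR. At an unadjusted p under 0.05, 3 were higher and 2 lower, with 10.7% of all genes under it. RAD27 had 63.7 and 63.9 CPM in ρ0 TIP41 cells, against 41.1 and 39.5 CPM in ρ0 vector cells. Its log2 fold change of 0.66 (SE 0.16) had an edgeR adjusted p of 0.129, and of 0.0245 with the replicate block, where 0.823% of all genes were called higher. Over the alternatives it ran from 0.0245 to 0.537. POL30 had 31.7 and 41.1 CPM in ρ0 TIP41 cells, a log2 fold change of 0.52 from ρ0 vector cells (SE 0.23, edgeR adjusted p 0.461). RFA3 had 52.5 and 56.7 CPM in ρ0 TIP41 cells, against 42.5 and 33.1 CPM in ρ0 vector cells (log2 fold change 0.52, SE 0.19, edgeR adjusted p 0.372).

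Set against each other, PDE2 and TIP41 cells differed in 0 of the 52 genes in edgeR, and in 0 by DESeq2, limma and every other alternative, with 0.394% of all genes called in edgeR. At an unadjusted p under 0.05, 1 was higher in PDE2 cells and 2 were lower, with 6.58% of all genes under it. POL30 differed by 0.34 on the log2 scale (SE 0.22, edgeR adjusted p 0.835).

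A subset of these genes was also lower in the overexpressing ρ0 cells than in ρ+ cells. Without the replicate block, 0 were called in the origin recognition complex, MCM2-7, polymerase delta, RFC and the topoisomerases in either comparison (edgeR). With the block, 1 subunit of polymerase delta was called lower in each comparison. In ρ0 PDE2 cells against ρ+ vector cells, 12 of the 52 genes fell and 0 rose, where 2.11% of all genes fell and 3.02% rose, with a median log2 fold change of -0.35. In ρ0 TIP41 cells against ρ+ vector cells, 11 fell and 0 rose, where 1.83% of all genes fell and 3.41% rose, with a median of -0.33. Limma called 0 in both comparisons, where DESeq2 called 5 and 4 lower. The shares of all genes called by limma and DESeq2 are not given. At an unadjusted p under 0.05 in edgeR, 24 were lower and 1 higher in PDE2 cells (18.6% of all genes under it), and 25 were lower and 0 higher in TIP41 cells (18.4%). Both share the ρ+ libraries with the comparison above, so the 3 are not independent. The PDE2 and TIP41 counts at the adjusted threshold were smaller without either replicate of the overexpressing group, and without either ρ+ replicate. With the replicate block, 16 fell in PDE2 cells, where 225 of the 5832 genes tested fell. In TIP41 cells 17 fell with the block, where 3.41% of all genes fell.

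Side by side, POL30 had log2 fold changes against ρ+ cells of -1.17 in PDE2 cells, -1.52 in TIP41 cells and -2.03 in vector cells. RAD27 had -0.84 in PDE2 cells, -0.64 in TIP41 cells and -1.30 in vector cells. CDC21 had -0.56 in PDE2 cells and -0.95 in TIP41 cells, neither past the threshold, and -1.30 in vector cells. CDC45, CDC9, MRC1, POL1, POL12, POL30, RAD27, RFA2 and TOF1 passed in each of the 3. In 26 of the 52 genes all 6 ρ0 libraries lay below both ρ+ libraries, as did 11% of all genes tested.

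**Figure D4:**
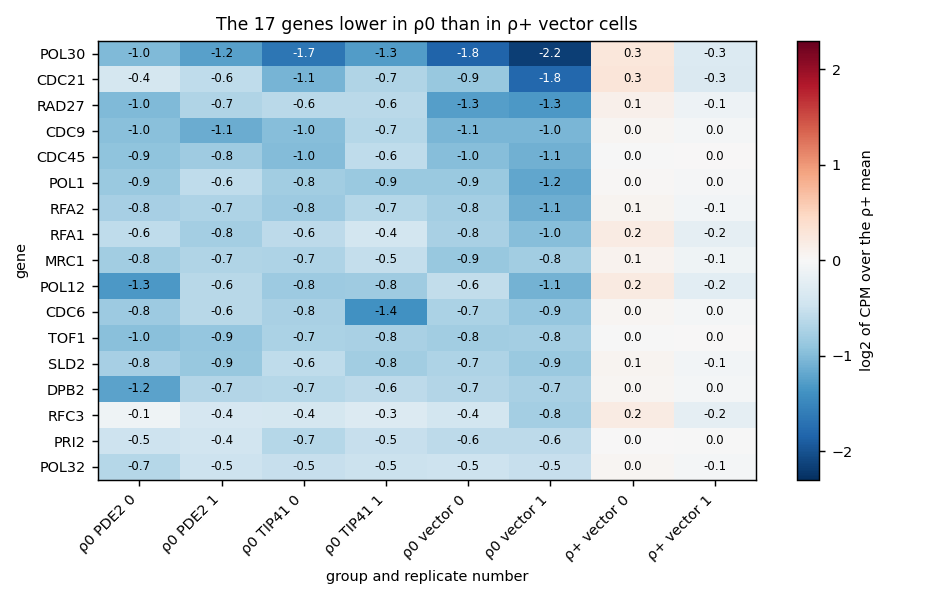
The 17 replication genes that fell with loss of mtDNA, in rows, and the 8 libraries by group and replicate number, in columns. Each cell gives log2 of the CPM over the mean of the 2 ρ+ libraries, with blue for lower: the ρ0 vector libraries reach -1.85 and -2.17 for POL30, where the ρ0 PDE2 libraries are at -1.01 and -1.24.

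Other genes of replication and the cell cycle were counted by list in ρ0 vector against ρ+ vector cells (edgeR, adjusted p under 0.05 over all genes). Of 24 further replication factors 6 fell and 0 rose, with a median log2 fold change of -0.14. Among those that fell were the histone chaperones ASF1 (-1.04) and RLF2 (-0.81). The fork repair factor RAD5 (-0.81) and the alternative clamp loader subunit CTF18 (-0.64) also fell. The log2 fold change was positive for 10 of the 24, among them DNA2 (0.42) and EXO1 (0.19), neither past the threshold. Of 10 checkpoint genes 1 fell, the kinase RAD53 (-0.95), and 0 rose, with a median of 0.04. Among 8 genes of ribonucleotide reductase and its control, the main large subunit RNR1 fell (-0.57), while the damage-inducible subunit RNR3 (1.71) and the repressor RFX1 (0.70) rose. Of 10 cohesion genes 5 fell and 0 rose (median -0.52), led by MCD1 (-1.59) and PDS5 (-1.03).

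Cell cycle lists differed in direction, in that the called G1/S and M/G1 genes were lower and the called histone and G2/M genes higher, and their part in the result was not tested. Of 15 G1/S regulators and cyclins 9 fell and 0 rose (median -1.23), with the S phase cyclin CLB5 at -1.44 and CLN1 at -1.88 among them. The log2 fold change was positive for 4 of the 15, namely MBP1, SWI6, WHI5 and YHP1, and none of these passed without the replicate block. Of 10 histone genes, most of which are transcribed in S phase, 2 rose and 0 fell (median 0.37), namely HTA1 (0.91) and HTB1 (0.59). Of 12 genes of the G2/M cluster 4 rose and 0 fell (median 0.35), and of 11 M/G1 genes 3 fell and 0 rose (median -0.19). With PDE2 in ρ0 cells, the histone genes HTA2 (0.87) and HTB2 (0.61) rose and the M/G1 gene DSE4 fell (-0.68), and these were the 3 genes past the threshold among the 100 of the 8 lists, close to the 2.3% of all genes tested. The coding sequences of HTA1 and HTA2, and of HTB1 and HTB2, are near copies, so fragments may have been divided between them.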

How the data were processed

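Polyadenylated RNA of 8 cultures was read as paired ends of 75 bases. The authors aligned reads with TopHat2 2.0.14 to R64 and ran Cuffdiff 2.2.1.1. Per the authors' deposited tables, estimated counts are unscaled fragments of a gene in a library. FPKM in the deposited tables follows geometric scaling. No strand setting is named for the counting, and 7 of the 52 genes share a deposited locus with an overlapping gene. Authors' own test columns were not used.

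After rounding, edgeR 4.0.16 (R 4.3.3) kept 5832 genes by filterByExpr, scaled by TMM and fitted all 4 groups by robust quasi-likelihood with 4 residual degrees of freedom. P-values were adjusted by Benjamini-Hochberg across these genes, and the code was tested on simulated data. SE is the log2 fold change over the square root of F. Alternatives used limma 3.58.1 on log2 FPKM, DESeq2 1.42.0, other filters, scaling, a replicate block and leaving out libraries. Same-numbered libraries deviated together in all 6 pairs of groups (correlation 0.24 to 0.58 over 5490 genes), so the replicate block took numbers to pair the cultures. The main fit held no such block, so its p-values and SE leave this pairing out. Promoter sequences came from the RefSeq copy of R64, where 46 of the 52 genes had the deposited start and end. Members and lists were chosen with earlier results of these data known. All 52 genes are accounted for by complex. Values per library are given for those past the threshold in any comparison, POL30, the genes with the highest and lowest mean FPKM, and log2 fold changes for up to 4 called genes per further list; ORC1, MCM3 and MCM7 were added after their values were seen.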

Additional observations from a re-analysis of the deposited data

How the results depend on the processing

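With 2 cultures a group, the counts of genes called moved with single libraries and with the tool, and the cause was not tested. Apart from the replicate block, the share of all genes called under each alternative is not given. A shift over all genes and one of the replication genes alone therefore cannot be told apart from these counts. For loss of mtDNA, 17 genes were called; DESeq2 called 10, limma on log2(FPKM + 1) or log2(FPKM + 0.1) called 8, the fit with the replicate block called 23, and leaving out 1 library gave 5 to 19. For PDE2 in ρ0 cells, 0 were called; the replicate block gave 2, summing overlapping genes at 1 locus (chosen after seeing the data) gave 1, and leaving out 1 library gave 0 to 2. For TIP41 in ρ0 cells the replicate block gave 1 and leaving out 1 library 0 to 0. For ρ0 PDE2 against ρ+ cells (12), DESeq2 called 5, limma 0 with either pseudocount, the replicate block 16, and leaving out 1 library 0 to 14. For ρ0 TIP41 against ρ+ cells (11), DESeq2 called 4, limma 0 with either pseudocount, the replicate block 17, the fit of only the 2 groups 18, and leaving out 1 library 1 to 15. For 46 log2 fold changes followed one by one (the called genes of each comparison, with POL30, RAD27 and CDC21 under PDE2 and TIP41), 594 values under the alternatives kept their direction and side of the threshold, 178 lost the call, 6 gained it and 1 turned: CDC21 with TIP41 in ρ0 cells was -0.031 without ρ0 vector replicate 1 and 0.91 without ρ0 vector replicate 0, against 0.35. The median log2 fold change of all genes stayed within 0.033 of 0 in every setting. Fits that leave 1 library in a group assume that it varies like the other groups.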

Other observations

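Outside the 52 replication genes, 11 tested genes hold 2 MCBs in the same window, and 9 of them were lower in ρ0 vector than in ρ+ vector cells. ASF1 (log2 fold change -1.04), the mismatch repair gene MSH6 (edgeR adjusted p 6.20e-04), RLF2 (-0.81) and the cohesin gene IRR1 (-0.67) were among the 9, with ERP3 (-1.26), ESC8 (-1.23), YJR030C (-1.16) and the tRNA splicing gene SEN34 (-0.81). The 2 that did not pass were EMW1 (-0.35, edgeR adjusted p 0.0897) and OPY2 (-0.03, edgeR adjusted p 0.92). These genes were found by their sequence and their values are given as a description. Boxes shared with a neighbouring replication gene were not removed, so the windows are not all separate from those of the list.

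Replicate 1 against replicate 0 over all groups changed 0 of the 52 replication genes in the edgeR fit with the block, and 3 had an unadjusted p under 0.05, where 1.68% of all genes tested passed the adjusted threshold.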
